A study of Mus musculus with 6 samples.

Results

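H19, Igf2 and 8 other genes of the imprinted growth network were followed in RNA labelled as mouse cranial bone, in 3 metformin scaffold libraries and 3 control libraries. The members were taken by gene symbol: H19, Igf2, Igf2r, Dlk1, Meg3, Cdkn1c, Grb10, Peg3, Plagl1 and Mest. Of these 10 symbols, 9 matched a row of the 28802 genes in the table, and Dlk1 is not analysed here. Members were chosen by symbol, and only a repeated symbol would have been selected on a measured value, the summed count; none was repeated. The list itself was drawn up with earlier results of this comparison known, so the fold changes and p-values of its members describe them and are no independent evidence.

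The metformin scaffold group is labelled 500 µM metformin (a biguanide drug for type 2 diabetes) in a scaffold of α-CSH, a calcium sulfate hemihydrate, and nHA, nano-hydroxyapatite. The control group is labelled 0 µM. The labels describe a skull defect of 5 mm in mice and poly(A) selection with paired reads of 150 bp. No source used here gives strain, age, time after treatment, what the control received, whether RNA came from tissue or culture, or whether replicates were separate animals. The p-values therefore measure only how these samples varied, and that variation may be technical.

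The libraries held 63174927 to 70955139 estimated counts each, and 1 read pair was assumed to give about 4 of them. Mitochondrially encoded genes took 6.96% to 8.58% of the counts in scaffold libraries and 6.40% to 7.16% in control libraries. All 9 osteoblast markers stood at 1 FPKM or more (fragments per kilobase of gene, scaled to library size), as did 3 of 6 osteocyte, 3 of 6 chondrocyte, 2 of 6 osteoclast (Ctsk and Mmp9) and 1 of 6 macrophage markers (Lyz2). None of the endothelial, erythroid, neutrophil, adipocyte, skeletal muscle or lymphocyte markers did. Summed FPKM of the osteoblast markers was 8698 to 8870 in scaffold and 7214 to 8239 in control libraries, that of the osteocyte markers 39.7 to 42.9 and 30.9 to 36.2, that of the chondrocyte markers 81.1 to 82.4 and 57.9 to 63.6, that of the osteoclast markers 125 to 135 and 108 to 120, and that of the macrophage markers 8.77 to 10.4 and 7.61 to 11.2.

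Within these lists edgeR called higher 5 of 9 tested osteoblast, 3 of 4 tested osteocyte and 1 of 3 tested chondrocyte markers. It called lower 1 of 2 tested osteoclast markers. Over all tested genes it called 2.85% higher and 1.46% lower. Some of these fold changes were as large as those of H19 or Igf2: the osteocyte matrix genes Dmp1 and Mepe were 4.35-fold and 2.00-fold higher, the osteoblast genes Bglap and Ibsp 3.79-fold and 1.72-fold, and the cartilage collagen Col2a1 1.82-fold, each called in all of its alternative settings. Of the other called markers, Alpl was 1.49-fold higher and kept its call in 15 of 15 alternatives, and Phex was 1.94-fold higher and kept it in 12 of 14. Sp7 and Sparc were 1.18-fold and 1.23-fold higher and were called in only 6 and 8 of 15 alternatives. Col1a1, Col1a2, Spp1, Runx2, Pdpn and Sox9 did not pass, at 1.02, 1.03, 1.07, 0.886, 0.896 and 0.916 times the control level. Pdpn, the largest part of the osteocyte sum, stood at 22.0 FPKM in scaffold and 25.2 FPKM in control libraries. Sost and Fgf23 of the osteocyte list averaged 0.0225 and 0.00465 FPKM over all libraries. Acan, which defines cartilage, was at 0.00399 FPKM in scaffold and 0 in control libraries. Ctsk was at 1.17 times the control level (edgeR adjusted p = 0.0746). Mmp9 was at 0.812 times (edgeR adjusted p = 0.0491), a call lost when any 1 library was left out. Ctsk, at 123 FPKM in scaffold and 108 FPKM in control libraries, made up most of the osteoclast sum. Acp5, Calcr, Ocstamp and Atp6v0d2 of that list averaged 0.00115 to 0.0526 FPKM over all libraries. The macrophage sum was mostly Lyz2, at 8.60 FPKM in scaffold and 8.77 FPKM in control libraries. The other macrophage markers averaged 0.0308 to 0.581 FPKM over all libraries. The adipocyte sum was 0.379 to 0.567 FPKM in scaffold and 0.206 to 0.347 FPKM in control libraries, and the erythroid sum 0.192 to 0.349 and 0.356 to 0.488 FPKM. Apart from the macrophage sum, the sums given did not overlap between the groups, and the adipocyte and erythroid sums were at trace levels. The endothelial, neutrophil, skeletal muscle and lymphocyte sums overlapped between the groups. The part of these markers in the results on H19 and Igf2 was not tested.

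Imprinted genes are expressed mainly from the copy inherited from 1 parent, through DNA methylation that marks control regions in the germ line. H19 is a noncoding RNA expressed from the maternal copy, and Igf2, its neighbour, encodes the fetal growth factor IGF2 and is expressed from the paternal copy; an insulator bound by CTCF between them directs shared enhancers to one or the other. Many imprinted genes are expressed strongly in the embryo and fall in level after birth, and the members act on growth from both sides, as growth factors and receptors, signalling adaptors, a cell cycle inhibitor and transcription factors. The table gives the sum over both alleles, so parental origin cannot be read from it.

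H19 is also the primary transcript of miR-675, and introns of Igf2 and Mest hold miR-483 and miR-335; their mature forms are shown because they are the short RNAs carried by the members whose levels are described below. The sequences are from RefSeq (GRCm38.p6), with the seed, bases 2 to 8, in capitals.
mmu-miR-675-5p: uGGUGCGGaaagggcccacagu
mmu-miR-675-3p: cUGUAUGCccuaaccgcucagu
mmu-miR-483-5p: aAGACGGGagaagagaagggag
mmu-miR-483-3p: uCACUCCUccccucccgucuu
mmu-miR-335-5p: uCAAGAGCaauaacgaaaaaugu
mmu-miR-335-3p: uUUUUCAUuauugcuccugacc
No 2 of the 6 share a seed. The miR-675 hairpin of 84 bases (chr7:142577064-142577147, minus strand) lies within the spliced sequence of 3 of 7 H19 transcripts in GENCODE M21, while the hairpins of miR-483 and miR-335 lie in no spliced transcript of Igf2 (9 transcripts) or Mest (11 transcripts). Poly(A) libraries do not measure mature microRNAs, and no level is given for them.

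H19 was 4.31-fold higher with the metformin scaffold and Igf2 was 1.31-fold higher, and no other member passed the test. Of 8 members tested with edgeR (quasi-likelihood test, Benjamini-Hochberg adjusted p under 0.05), 2 were called, against 4.31% of the 17375 genes tested. The 2 were higher, as were 2.85% of all tested genes, and 0 were lower, against 1.46%. The count of 0 stood beside 1 member, Mest, that was lower at an unadjusted p under 0.05. In all, 3 of the 8 tested members had an unadjusted p under 0.05 in edgeR, against 18.1% of all tested genes. DESeq2, which called 8.17% of all genes, called H19 and Igf2 higher and Mest lower. With limma on log2(FPKM + 1), which called 4.26%, H19 and Igf2 were called higher and no member lower. The median log2 fold change of the 8 tested members was 0.09, against -0.0045 over all tested genes. That median includes Cdkn1c and Peg3, at 0.30 ± 0.60 and 0.08 ± 0.44 (SE), both near the limit of detection. In bulk RNA, fewer cells of a type and less RNA per cell cannot be told apart.

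**Figure D1:**
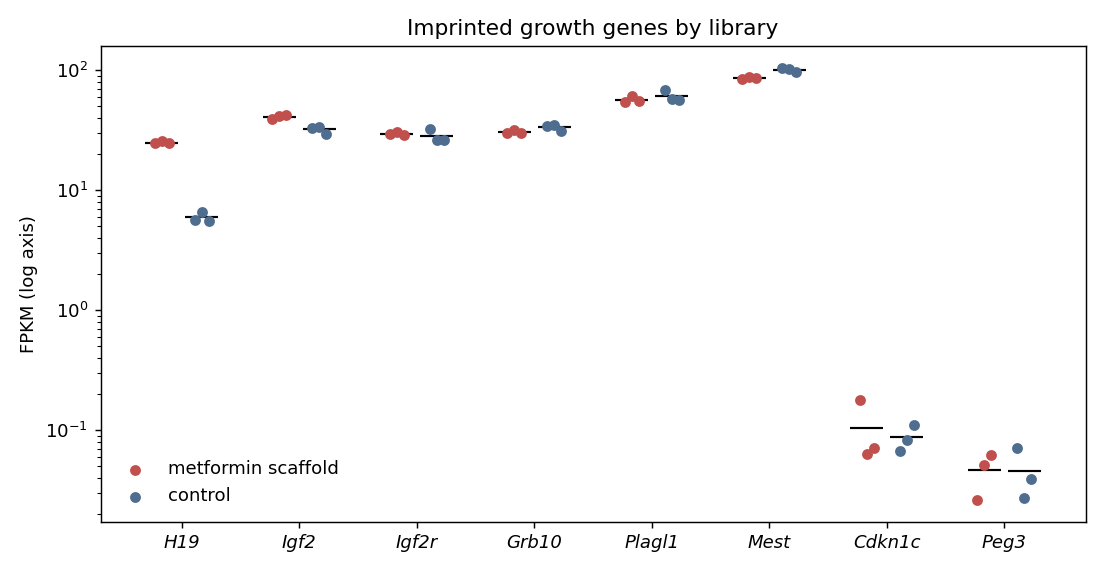
FPKM of 8 members on a log axis, with 3 metformin scaffold libraries (red, left) and 3 control libraries (blue, right) per gene and a line at each group mean. H19 lies at 24.5 to 25.5 FPKM in scaffold and 5.55 to 6.59 FPKM in control libraries, while Cdkn1c and Peg3 lie under 0.2 FPKM in both groups.

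H19 (ENSMUSG00000000031, chromosome 7, 142575529 to 142578143, minus strand, GRCm38) stood at 24.7, 25.5 and 24.5 FPKM in scaffold replicates 1 to 3, against 5.63, 6.59 and 5.55 FPKM in control replicates 1 to 3. Every scaffold library was above every control library, and the spread within each group was small beside the gap between them. These levels rest on 4328 to 4893 estimated counts per scaffold library and 970 to 1276 per control library. On the scale of counts relative to library size (CPM, scaled by TMM), H19 averaged 69.4 ± 0.972 in scaffold and 16.1 ± 1.64 in control libraries (SD, n = 3 each), which is 2.11 ± 0.08 higher on the log2 scale (SE; edgeR adjusted p = 2.78e-07). H19 had the smallest p of the 17375 genes tested, and its fold change ranked 32 from the top; among the 6925 tested genes with a mean of at least 5 FPKM it ranked 2. Among 1733 genes that the table annotates as lincRNA, long noncoding RNAs between genes, H19 ranked 6 by mean FPKM in scaffold and 23 in control libraries. Its call was kept in all 15 alternative settings, with log2 fold changes from 1.91 to 2.20.

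Igf2 (ENSMUSG00000048583, chromosome 7, 142650766 to 142666816, minus strand), the growth factor gene of the same domain, stood at 39.0, 41.1 and 42.4 FPKM in scaffold libraries, against 33.2, 33.8 and 29.2 FPKM in control libraries. The groups did not overlap, and the gap between them was much smaller than for H19. Igf2 averaged 265 ± 12.3 CPM in scaffold and 202 ± 15.3 CPM in control libraries (SD, n = 3 each), which is 0.39 ± 0.07 higher on the log2 scale (SE; edgeR adjusted p = 0.00716). It was called in all 15 alternatives, with an adjusted p of up to 0.0474 without scaffold replicate 3. The predicted gene Gm49394 overlaps Igf2 over 16048 bases on the same strand, so reads may be split between them. Gm49394 held 401, 960 and 216 estimated counts in scaffold libraries and 0, 58 and 20 in control libraries. With its counts added to those of Igf2, an alternative chosen after seeing the data, the Igf2 log2 fold change was 0.43 ± 0.07 (edgeR adjusted p = 0.00428). Igf2os, the antisense gene, overlaps Igf2 over 7124 bases at 0.0309 FPKM in scaffold and 0.0745 FPKM in control, and no source used here says whether counting kept the strands apart.

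The ratio of H19 to Igf2 FPKM was 0.633, 0.620 and 0.577 in scaffold libraries, against 0.170, 0.195 and 0.190 in control libraries. It averaged 0.610 ± 0.0293 in scaffold and 0.185 ± 0.0134 in control libraries (SD, n = 3 each), 3.30 times as high, without overlap between the groups. The ratio has no test of its own.

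**Figure D2:**
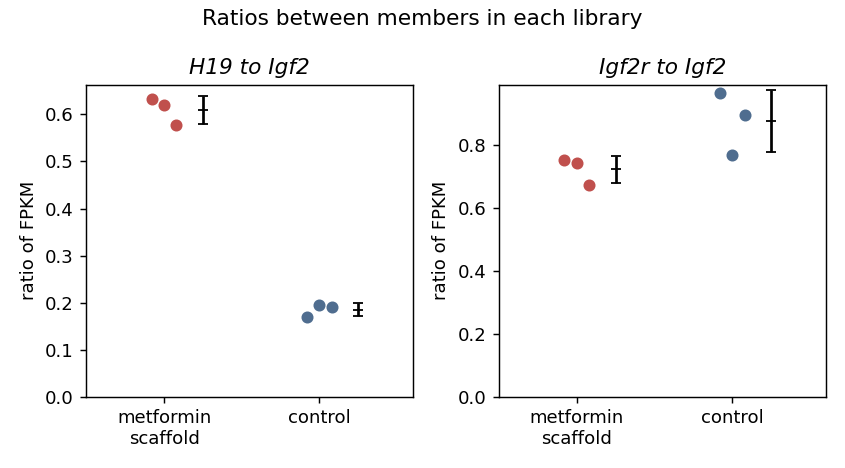
FPKM ratios of H19 to Igf2 and of Igf2r to Igf2 in each library, metformin scaffold (red) left of control (blue), with the group mean and SD in black. The H19 to Igf2 ratio lies between 0.577 and 0.633 in scaffold and between 0.170 and 0.195 in control libraries; the Igf2r to Igf2 ratio is lower in each scaffold library than in any control library.

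RefSeq lists 14 promoter windows (250 bases before to 50 after a start, GRCm38.p6) for 7 of the 9 members, with no entry for H19 or Cdkn1c. Igf2 has 4 such windows, and the 2 that hold a motif searched are shown because the table does not say which start Igf2 reads came from. The motifs were the GC box with letters GGGCGG, the TATA box with letters TATAAA and the core of hypoxia response elements with letters ACGTG, on both strands; matches are in capitals. The windows lie on the minus strand at chr7:142657447-142657746 and chr7:142658755-142659054.
Igf2 window at 142657447: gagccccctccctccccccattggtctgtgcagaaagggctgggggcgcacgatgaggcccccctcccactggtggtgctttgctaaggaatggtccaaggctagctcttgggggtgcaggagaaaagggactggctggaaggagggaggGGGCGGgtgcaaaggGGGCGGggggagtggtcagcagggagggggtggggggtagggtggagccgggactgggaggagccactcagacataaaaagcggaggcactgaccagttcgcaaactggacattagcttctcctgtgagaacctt
Igf2 window at 142658755: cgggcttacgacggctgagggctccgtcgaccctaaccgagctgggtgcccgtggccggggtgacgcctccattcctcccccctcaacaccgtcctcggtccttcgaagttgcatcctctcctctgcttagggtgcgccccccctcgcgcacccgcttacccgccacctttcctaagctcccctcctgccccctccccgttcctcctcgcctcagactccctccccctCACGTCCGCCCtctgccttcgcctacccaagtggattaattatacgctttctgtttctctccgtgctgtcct
The first holds 2 GC boxes, and the second holds 1 GC box directly beside 1 hypoxia core. Of 32851 windows of this length over all genes, 35.7% hold a GC box, 13.6% a TATA box and 19.6% a hypoxia core. The other 2 Igf2 windows hold none of the 3 motifs.

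Within 250 kb of the H19 start, 11 other genes were tested and 3 passed, all higher, against 4.31% called over all tested genes. The 3 were Igf2, Gm49394 and Lsp1, which encodes a leukocyte actin-binding protein. Igf2 is itself a member, and Gm49394 overlaps it over 16048 bases on the same strand. Neither call is therefore separate from the result on Igf2. The start of Igf2 lies 88.7 kb upstream of that of H19. Lsp1 lies 117.3 kb downstream of the H19 start on the opposite strand, at 2.37 ± 0.241 FPKM in scaffold and 1.82 ± 0.159 FPKM in control libraries (SD, n = 3 each; log2 fold change 0.42 ± 0.10, edgeR adjusted p = 0.0498). Its call was lost in 11 of 14 alternatives (adjusted p from 0.0504 to 0.194), among them leaving out scaffold replicate 2 or 3 or any control replicate. Gm49394 was 4.34 ± 0.75 higher on the log2 scale (edgeR adjusted p = 0.00766) and lost its call in 3 of 14 alternatives (adjusted p from 0.0526 to 0.0648). Mrpl23, a mitochondrial ribosomal protein gene between H19 and Lsp1, stood at 0.12 ± 0.09 (edgeR adjusted p = 0.561). Nctc1, a noncoding transcript from the enhancer region shared by H19 and Igf2, was listed at 0.0128 FPKM in scaffold replicate 1 and at 0 in the other 5 libraries. Over all members, 48 tested genes lay within this distance of one, H19 and Igf2 counted among them, and 5 passed: these 4 and Acat2, described with Igf2r. Without the members, 3 of 46 passed, against the same 4.31%, with Gm49394, which overlaps Igf2, still counted among the 3.

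**Figure D3:**
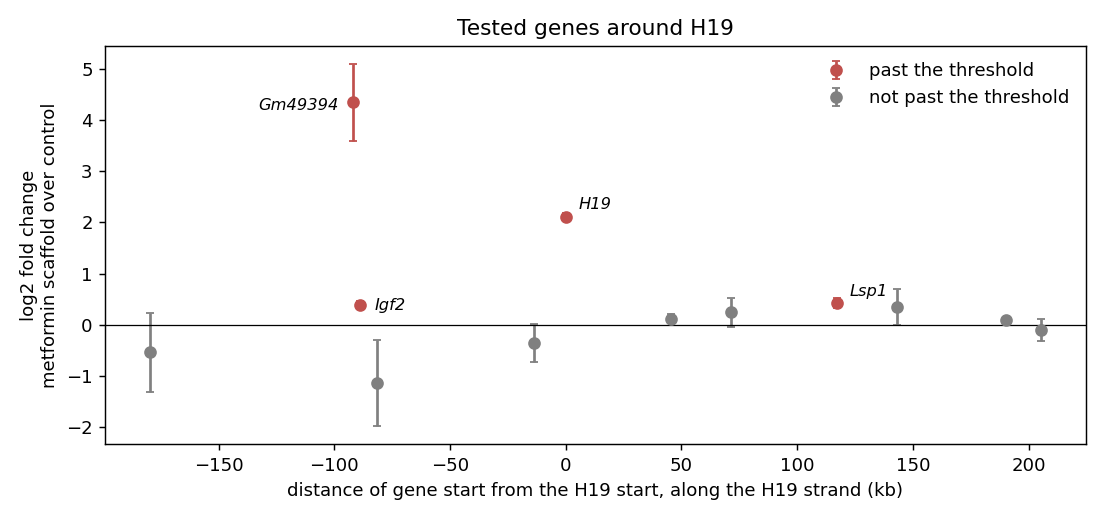
log2 fold change with SE (metformin scaffold over control) of tested genes within 250 kb of the H19 start, by distance of their start along the H19 strand. Red points passed the edgeR threshold; H19 lies at 2.11, Igf2 at 0.39 and Lsp1 at 0.42, and Gm49394, a low transcript that overlaps Igf2, at 4.34.

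Igf2r encodes the receptor that binds IGF2 and carries it to lysosomes, and it is expressed from the maternal copy. It stood at 29.3, 30.5 and 28.6 FPKM in scaffold libraries, against 32.1, 26.0 and 26.2 FPKM in control libraries (ENSMUSG00000023830, chromosome 17, 12682406 to 12769664, minus strand). Control replicate 1 lay above all 3 scaffold libraries and the other control libraries below them. The log2 fold change was 0.11 ± 0.08 (SE; edgeR adjusted p = 0.498), and 0.21 without control replicate 1 (adjusted p = 0.0526). Airn, the paternal antisense RNA that silences Igf2r in the embryo, overlaps it over 28354 bases and stood at 1.97 ± 0.262 FPKM in scaffold and 2.07 ± 0.309 FPKM in control libraries (SD, n = 3 each; log2 fold change -0.04 ± 0.13, edgeR adjusted p = 0.925). The ratio of Igf2r to Igf2 FPKM averaged 0.723 ± 0.0428 in scaffold and 0.876 ± 0.0994 in control libraries, without overlap between the groups and without a test of its own. Acat2, an acetyl-CoA acetyltransferase gene whose start lies at -191.1 kb from that of Igf2r, upstream of it, was higher (log2 fold change 0.34 ± 0.07, edgeR adjusted p = 0.0185) and lost this call in 6 of 15 alternatives (adjusted p from 0.0573 to 0.0976), those without scaffold replicate 3, control replicate 1 or control replicate 3 among them. Slc22a2, a cation transporter gene of the same domain, was under 0.15 FPKM in every library and was not tested.

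Grb10 encodes an adaptor that dampens insulin and IGF1 receptor signalling. It stood at 30.0, 31.4 and 30.1 FPKM in scaffold libraries, against 34.0, 35.0 and 31.1 FPKM in control libraries. The highest scaffold library lay just above the lowest control library, and the log2 fold change was -0.09 ± 0.06 (SE; edgeR adjusted p = 0.459). Its neighbours Cobl, an actin nucleator gene, and Ddc, the dopa decarboxylase gene, stood at 0.10 ± 0.08 (edgeR adjusted p = 0.595) and 0.07 ± 0.11 (edgeR adjusted p = 0.812).

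Mest, a paternally expressed gene for a membrane protein of the hydrolase fold family and a marker of embryonic mesoderm, had the highest level of the 9 members in both groups. It stood at 84.8, 88.4 and 86.3 FPKM in scaffold libraries, against 105, 102 and 95.9 FPKM in control libraries. Every scaffold library was below every control library. The groups were likewise apart in CPM for 3 of the 8 tested members, H19, Igf2 and Mest, against 24.0% of all tested genes. The log2 fold change was -0.18 ± 0.05 (SE), which did not pass (edgeR adjusted p = 0.0902). It passed with DESeq2 (-0.18, adjusted p = 0.00742) and with libraries scaled by their totals (-0.22, edgeR adjusted p = 0.0402), within a range of adjusted p from 0.00742 to 0.253 over 15 alternatives. Copg2, a coat protein gene that overlaps the end of Mest by 909 bases on the opposite strand, stood at 19.7 ± 2.03 FPKM in scaffold and 23.2 ± 0.369 FPKM in control libraries (SD, n = 3 each; log2 fold change -0.20 ± 0.07, edgeR adjusted p = 0.161).

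Plagl1 encodes a zinc finger transcription factor that, in mouse cells, binds enhancers of the H19 and Igf2 domain and raises several imprinted genes. It stood at 53.7, 60.3 and 55.5 FPKM in scaffold libraries, against 68.9, 57.0 and 56.0 FPKM in control libraries. The groups overlapped, with control replicate 1 above the other 5 libraries, and the log2 fold change was -0.06 ± 0.08 (SE; edgeR adjusted p = 0.741), or 0.03 ± 0.06 without that library (adjusted p = 0.833).

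Cdkn1c, Peg3 and Meg3 were near the limit of detection in both groups. Cdkn1c encodes p57, an inhibitor of cyclin-dependent kinases. It held 31, 10 and 11 estimated counts in scaffold libraries and 10, 14 and 18 in control libraries, which is about 13 and 10 read pairs in all. The ratio of read pairs, scaffold over control, was 1.28, with an exact binomial (Clopper-Pearson) 95% interval of 0.517 to 3.25 that covers counting error only. The edgeR log2 fold change was 0.30 ± 0.60 (SE; adjusted p = 0.850), and -0.35 without scaffold replicate 1. Kcnq1ot1, the noncoding RNA that silences the domain of Cdkn1c on the paternal copy, stood at 0.166 ± 0.00392 FPKM in scaffold and 0.200 ± 0.0352 FPKM in control libraries (SD, n = 3 each; edgeR adjusted p = 0.306).

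Peg3, a paternally expressed zinc finger gene, stood at 0.0261, 0.0508 and 0.0617 FPKM in scaffold libraries and at 0.0711, 0.0269 and 0.0389 FPKM in control libraries. The groups overlapped, and the difference in log2 level was 0.08 ± 0.44 (SE; edgeR adjusted p = 0.954), which was -0.19 both without scaffold replicate 3 and without control replicate 2. Its neighbours Usp29 and Zim1 were at or under 0.0181 FPKM in every library and were not tested.

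Meg3, the maternally expressed noncoding RNA of the Dlk1 domain, was listed at 0, 0 and 4 estimated counts in scaffold libraries and at 0, 13 and 6 in control libraries. This is about 1 read pair and 5 read pairs, a ratio of 0.196 with an exact binomial 95% interval of 0.00415 to 1.75, so no difference was detectable at this depth. Meg3 did not reach the count needed for the test. The noncoding RNAs Rian and Mirg and the retrotransposon-derived gene Rtl1 of the same domain were each at or under 0.0303 FPKM in every library. Dio3, the thyroid hormone deiodinase gene at the far end of the domain, stood at 0.631 ± 0.0154 FPKM in scaffold and 0.697 ± 0.0445 FPKM in control libraries (SD, n = 3 each; log2 fold change -0.10 ± 0.21, edgeR adjusted p = 0.853).

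By mean FPKM, the members followed the order Mest, Plagl1, Igf2, Grb10, Igf2r, H19, Cdkn1c, Peg3 and Meg3 in scaffold libraries. In control libraries Grb10 stood before Igf2, and the order was otherwise the same. The ranges of neighbours in this order overlapped for Grb10 and Igf2r in scaffold, and for Grb10 and Igf2, Igf2 and Igf2r, and Cdkn1c and Peg3 in control; all other neighbours were separated in all 3 libraries of a group. Thus 6 of the 9 members lay at 5 FPKM or more in both groups, and the other 3 under 0.2 FPKM.

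**Figure D4:**
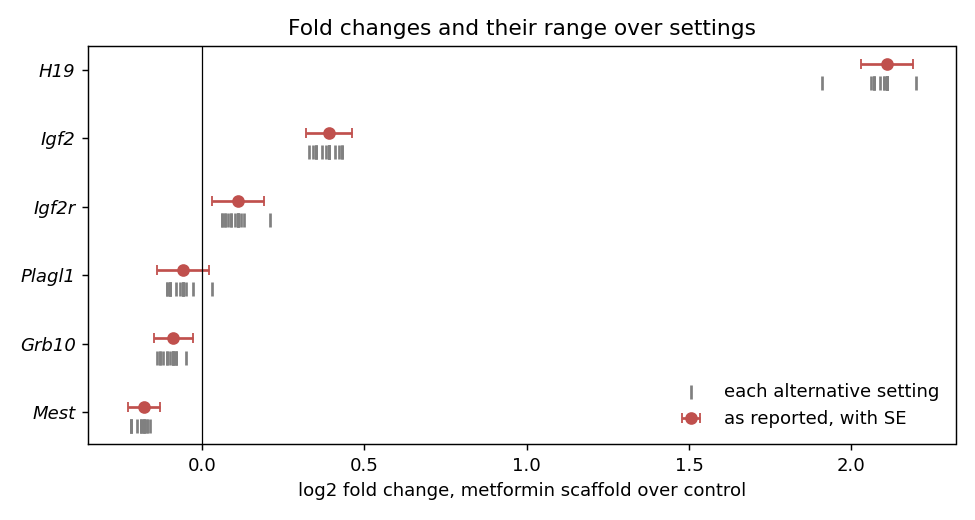
log2 fold change (metformin scaffold over control) of the 6 members above 5 FPKM, as a point with its SE, and below it a tick for each alternative setting. H19 keeps between 1.91 and 2.20 and Igf2 between 0.33 and 0.43, while the ticks of Plagl1 lie on both sides of 0.

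Beyond the members, 57 other imprinted genes were listed and 50 had a row. Of 33 tested, 0 were higher and 1 was lower in edgeR, Blcap, against 2.85% and 1.46% of all tested genes, and 8 had an unadjusted p under 0.05, against 18.1% of all tested genes. DESeq2 called 1 higher and 1 lower among the maternally expressed and 1 lower among the paternally expressed, and limma called 1 lower in each. Over all genes that each tested, DESeq2 called 8.17% and limma 4.26% in either direction. The 17 tested genes listed as paternally expressed had a median log2 fold change of -0.18, and the 16 listed as maternally expressed one of -0.05. Whether these genes were expressed from 1 parental copy in these samples was not measured. Blcap, a small membrane protein gene around the imprinted gene Nnat, stood at 10.7 ± 0.107 FPKM in scaffold and 12.3 to 13.6 FPKM in control libraries. Its log2 fold change was -0.24 ± 0.06 (SE; edgeR adjusted p = 0.0491), and the call was lost in 8 of 15 alternatives (adjusted p from 0.0733 to 0.159), including leaving out any of the 6 libraries. Among the paternally expressed genes the highest mean levels were those of Impact, a regulator of translation under amino acid stress, and Zrsr1, related to a splicing factor subunit. Impact stood at 20.7 ± 0.856 FPKM in scaffold and 24.8 ± 0.932 FPKM in control libraries (SD, n = 3 each; log2 fold change -0.22 ± 0.06, edgeR adjusted p = 0.0549) and passed in 7 of 15 alternatives (adjusted p from 0.00538 to 0.206). Zrsr1 stood at 8.60 ± 0.0292 FPKM in scaffold and 9.56 ± 0.347 FPKM in control libraries (SD, n = 3 each; log2 fold change -0.12 ± 0.06, edgeR adjusted p = 0.323). Peg10, a retrotransposon-derived gene of placental growth in the imprinted cluster of chromosome 6, stood at 1.54 ± 0.0664 FPKM in scaffold and 1.54 ± 0.290 FPKM in control libraries (edgeR adjusted p = 0.905).

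Of 19 tested genes of the IGF axis other than Igf2 and Igf2r, 3 were lower and 0 higher with edgeR, against 1.46% and 2.85% of all tested genes, with a median log2 fold change of -0.12. DESeq2 called 6 lower and limma 2, and both called 0 higher. Over all genes DESeq2 called 536 of 17375 lower and 883 higher, and limma 245 of 13344 lower and 323 higher. In edgeR, 8 of the list had an unadjusted p under 0.05, against 18.1% of all tested genes. Igfbp6, the binding protein that prefers IGF2 over IGF1, stood at 16.0, 16.7 and 16.6 FPKM in scaffold libraries, against 22.7, 23.9 and 24.0 FPKM in control libraries. The groups were far apart, the difference in log2 level was -0.48 ± 0.07 (SE; edgeR adjusted p = 0.00276), and the call was kept in all 15 alternatives. Igf1, the postnatal growth factor gene, stood at 9.79 ± 0.271 FPKM in scaffold and 11.9 ± 0.595 FPKM in control libraries (SD, n = 3 each; log2 fold change -0.24 ± 0.05, edgeR adjusted p = 0.0286). Pappa, a protease that cleaves IGF binding proteins, stood at 0.703 ± 0.0220 FPKM in scaffold and 1.02 ± 0.0900 FPKM in control libraries (SD, n = 3 each; log2 fold change -0.49 ± 0.10, edgeR adjusted p = 0.0176). Igf1 lost its call in 5 of 15 alternatives (adjusted p from 0.0585 to 0.151), those without scaffold replicate 2 or 3 or control replicate 1 or 2 among them, and Pappa in 6 of 14 (adjusted p from 0.0508 to 0.106), those without scaffold replicate 2 or 3 or control replicate 2 among them.

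Among 19 tested regulators of imprints, 2 were higher and 0 lower with edgeR, against 2.85% and 1.46% of all tested genes, with a median log2 fold change of 0.02. Uhrf1, which brings the methyltransferase to newly copied DNA, stood at 13.4, 14.9 and 14.3 FPKM in scaffold libraries, against 9.64, 11.3 and 10.3 FPKM in control libraries. Its log2 fold change was 0.48 ± 0.07 (SE; edgeR adjusted p = 0.00352), kept in all 15 alternatives. Dnmt1, that methyltransferase, stood at 9.79, 11.9 and 11.3 FPKM in scaffold libraries, against 9.30, 9.11 and 8.94 FPKM in control libraries (log2 fold change 0.31 ± 0.07, edgeR adjusted p = 0.0286). The lowest scaffold library lay close to the highest control library, and the call was lost in 8 of 15 alternatives (adjusted p from 0.0642 to 0.139), without scaffold replicate 2 or 3 or any control replicate among them. DESeq2 called 3 higher and limma 1, against 883 of 17375 and 323 of 13344 over all genes, and both called 0 lower. In edgeR, 3 genes of the list had an unadjusted p under 0.05, against 18.1% of all tested genes.

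In the list of let-7 targets and related growth genes, chosen because H19 binds let-7 microRNAs in mouse and human cells, 1 of 12 tested genes was higher with edgeR and 0 lower, against 2.85% and 1.46% of all tested genes, with a median log2 fold change of -0.02. Hmga2, a chromatin protein of fetal growth, stood at 7.42, 9.35 and 10.1 FPKM in scaffold libraries, against 5.98, 6.21 and 6.85 FPKM in control libraries. The groups did not overlap, and the difference in log2 level was 0.53 ± 0.10 (SE; edgeR adjusted p = 0.0126), and the call was lost in 7 of 15 alternatives (adjusted p from 0.0556 to 0.0697), without scaffold replicate 2 or 3 or control replicate 1 or 2 among them. DESeq2 called 3 genes of the list higher and limma 0, against 883 of 17375 and 323 of 13344 over all genes. Both called 0 lower. In edgeR, 5 of the list had an unadjusted p under 0.05, against 18.1% of all tested genes.

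**Figure D5:**
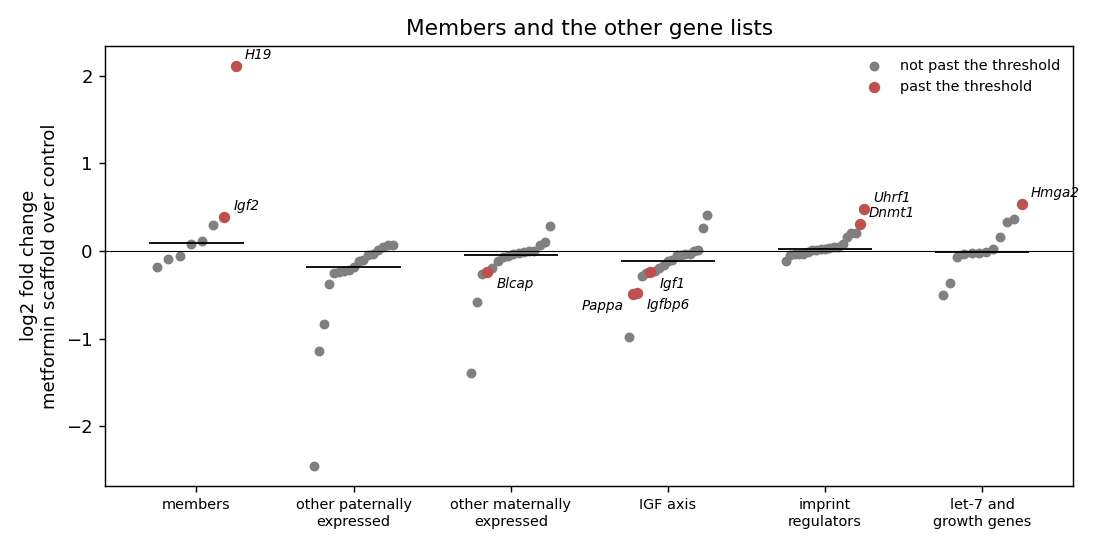
log2 fold change (metformin scaffold over control) of each tested gene of the members and of 5 other lists, sorted within each list, with a line at the list median. Red points passed the edgeR threshold; H19 at 2.11 stands above every other point, and Igf2 at 0.39 is the other called member.

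The genes whose centred log2(FPKM + 1) profile over the 6 libraries lay closest to that of H19, by root mean square difference among 6462 other genes with a mean of at least 5 FPKM, predicted (Gm, Rik) and mitochondrially encoded genes left out, were Car9, Bglap2 and Septin2, at 0.20, 0.28 and 0.30. Car9, a carbonic anhydrase gene, stood at 9.76 ± 0.487 FPKM in scaffold and 2.77 ± 0.197 FPKM in control libraries (SD, n = 3 each). Bglap2, an osteocalcin gene whose reads may be shared with its near-identical copy Bglap, stood at 37.8 ± 7.96 FPKM in scaffold and 10.5 ± 2.23 FPKM in control libraries. Septin2, a cytoskeletal GTPase gene, stood at 50.8 ± 11.3 FPKM in scaffold and 11.7 ± 3.66 FPKM in control libraries. Closest to Igf2 were Angptl2, a secreted angiopoietin-like protein gene, Nsa2-ps1 and Dhx58os, each at 0.04. Angptl2 stood at 18.0 ± 1.16 FPKM in scaffold and 13.9 ± 0.617 FPKM in control libraries. With 2 groups of 3 libraries, such a likeness mostly reflects the difference between the groups, and it describes these libraries only.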

How the data were processed

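RNA labelled as mouse cranial bone was sequenced after poly(A) selection in 3 metformin scaffold and 3 control libraries, grouped by sample title. The deposited table holds FPKM, in which the authors allowed for library size and gene length, and estimated counts that the authors did not scale to library size. Per the submitters' processing notes, bcl2fastq 2.20, fastp, HISAT2, StringTie, DESeq2 and edgeR were used, without roles, with the genome build not given in the sources used here. Between 31.8% and 33.6% of values from 1 to 12 were 4, 8 or 12, and the others were no multiple of 4. Taking 1 read pair as about 4 counts is therefore an assumption. The read pair numbers and intervals given for members of low level rest on it. Of the identifiers, 99.7% were in GENCODE M21 (GRCm38), and 87.2% of these had identical chromosome, start, end and strand; coordinates are printed for those genes.

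Estimated counts were rounded and tested over all genes with edgeR 4.0.16 (R 4.3.3; filterByExpr, minimum count 10; TMM; quasi-likelihood test, two-sided; Benjamini-Hochberg threshold 0.05). Fold changes are metformin scaffold over control; an SE is the log2 fold change divided by the square root of F. Intervals and floors (3 read pairs over a group) cover counting error only. DESeq2 1.42.0 and limma 3.58.1, on log2(FPKM + 1) or log2(FPKM + 0.1), served among 15 alternatives. The fits were also run on simulated counts, with the spread between libraries as edgeR estimated it and 200 genes changed. None of the 200 was of low count, so this check does not cover members of low level. The members and lists were chosen with earlier results of these data known. Named genes are the members, list genes with the smallest p among those called (3 at most) or the 2 highest in FPKM where none was called, domain partners of members and, listed with them, Peg10 of another imprinted cluster, called genes within 250 kb of a member, and the 3 genes most alike to H19 and to Igf2; markers, neighbours that did not pass and lincRNAs named beside these were chosen after their values were seen. The planned likeness to Dlk1 and ratio of Meg3 to Dlk1 are not analysed here.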

Additional observations from a re-analysis of the deposited data

How the results depend on the processing

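H19 and Igf2 kept their direction and their call in all 15 alternatives, and Igf2r and Grb10 stayed uncalled with the same sign in all 15. The number of called members was 2 higher throughout, and 1 lower, Mest, both with DESeq2 and with libraries scaled by their totals. Over all genes, 496 were called higher and 253 lower. These counts were 883 and 536 with DESeq2, 429 and 380 with libraries scaled by totals (53.0% of calls higher, against 66.2%), 317 and 115 with no filter on low counts, 311 and 256 among genes averaging 5 FPKM or more, 323 and 245 with limma on log2(FPKM + 1), and 317 and 242 on log2(FPKM + 0.1). Leaving out 1 library gave 234 to 610 higher and 89 to 358 lower, with the lowest counts without scaffold replicate 3 and falls of over 1.5 times also without scaffold replicate 2 (304 and 117), control replicate 2 (304 and 111) and, for lower genes, control replicate 3 (127). Sign changes were confined, among members, to uncalled genes when 1 library was left out: -0.35 to 0.58 for Cdkn1c, -0.19 to 0.53 for Peg3 and -0.11 to 0.03 for Plagl1. The cause was not tested. Same-numbered libraries did not deviate together (r of -0.0467, 0.0116 and -0.0154 for numbers 1 to 3). With 3 libraries per group, these values cannot show whether such libraries share anything beyond the number. With the replicate block 460 genes were higher and 191 lower. In that setting H19 and Igf2 stayed called, and Blcap and Lsp1 lost their calls (edgeR adjusted p = 0.0877 and 0.0634). Depth limits Cdkn1c, Peg3 and Meg3, with 1 to 36 read pairs per group.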

Other observations

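Among 554 tested genes annotated as lincRNA, 4 were higher and 4 lower in metformin scaffold libraries with edgeR. This is 1.44% of the tested genes of the class, against 4.31% of all tested genes, and the difference between these shares was not tested. Most of the class was at low level: H19, at 5.92 FPKM in control libraries, ranked 23 of 1733 there. Whether level bears on the share called was not tested. H19 had the smallest adjusted p of the 8 (2.78e-07). The most abundant of the lower ones was Neat1, the noncoding RNA that scaffolds nuclear paraspeckles, at 29.6 ± 3.41 FPKM in scaffold and 40.0 ± 2.23 FPKM in control libraries (SD, n = 3 each; log2 fold change -0.40 ± 0.08, edgeR adjusted p = 0.0165). The other higher ones were low: Gm8883 at 0.940 and 0.402 FPKM, 3300005D01Rik at 1.15 and 0.502 FPKM and Morrbid, a regulator of Bcl2l11 in mouse myeloid cells, at 0.188 and 0.123 FPKM in scaffold and control libraries. These genes were chosen after their values were seen.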
